A study of Mus musculus with 8 samples.

Results

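The interleukin-17 axis was examined as 7 genes, chosen by symbol, of the 32285 genes in the deposited feature tables. They are the cytokine genes Il17a and Il17f, the receptor genes Il17re, Il23r and Il17ra, and the transcription factor genes Maf and Rora. IL-17A and IL-17F are secreted by cells with a type 17 program, which is driven in T cells and innate lymphocytes by IL-23, IL-1 and a set of transcription factors. They act through receptors that share the subunit IL-17RA, and the responding cells, which include stromal, epithelial and myeloid cells, release chemokines that attract neutrophils. In and around the mouse brain, type 17 gamma-delta T cells are known from the meninges, where many carry a receptor with the Vgamma6 chain.

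The data were single-cell RNA-seq counts of CD45.2+ immune cells sorted from perfused mouse brain, with 8 libraries in all. WT mice were of the C57BL/6J strain, and APPNL-G-F mice are knock-in mice whose App gene carries a humanized amyloid-beta sequence with the Swedish, Arctic and Iberian mutations. For each genotype there was 1 library of control mice given water, 1 of acute colitis (dextran sulfate sodium, DSS, at 2% in the drinking water for 1 week), 1 of chronic colitis (3 cycles of 5 days of 2% DSS and 5 days of water) and 1 of food allergy to ovalbumin given by injection and then by mouth. All mice were labelled 16 weeks old. A CD45 antibody was injected intravenously to mark blood cells, and since its label is not among the counts, cells of vessels and of tissue cannot be told apart. With 1 library per condition, a treatment and its library cannot be told apart either. Where 4 library values of a genotype follow each other, they stand in the order control, acute DSS, chronic DSS, ovalbumin.

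The libraries held 4874 to 7199 cells, with 25616824 to 54618574 unique molecular identifiers (UMIs, each 1 captured transcript) in cells and median depths of 2777 to 4130 UMIs per cell. Pairs of libraries shared 34 to 72 cell barcodes. Antibody hashtags, put on each sample before pooling, divided the cells into 30 hashtag groups. These are not called mice here, since no source ties a hashtag to an animal. In T cells, 10 immediate-early genes such as Fos, Jun and Egr1, which cells induce within minutes of a stimulus, summed to 605 to 1414 CPM (counts of a gene scaled to 1000000 UMIs) in 14 groups, the low set, and to 3316 to 6453 CPM in the other 16, the high set. Every library held groups of both sets. Cell types were named from clusters by marker genes, and the 7 genes were kept out of the genes that shaped the clusters. Each name stands for cells like that type. Rankings by the mean over libraries cover only named types with at least 10 cells in every library. This leaves out microglia, fibroblasts, erythroid cells and migratory dendritic cells. Sums of UMIs have exact Poisson and shares of cells exact Clopper-Pearson 95% intervals, which cover counting error only. At a finer clustering (resolution 1.0), 107 cells split from it as ILC3, with Cd3e, a subunit of every T cell receptor, at 30.9 CPM in them against 1524 CPM in the 1578 cells still named gamma-delta T cells.

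Il17a (ENSMUSG00000025929, chromosome 1, 20730905 to 20734496, plus strand) and Il17f (ENSMUSG00000041872, chromosome 1, 20777146 to 20790617, minus strand) lie side by side on GRCm38, with 42649 bases between them. Il23r (ENSMUSG00000049093) is on chromosome 6 from 67422932 to 67491855, minus strand. The bases just before the start sites of these 3 genes are shown because these genes had the largest shares of their UMIs in gamma-delta T cells, where Rora, which encodes a nuclear receptor, was also high. The sequences are from RefSeq on GRCm38.p6, 5′ to 3′ on the strand of the gene. Capitals mark the letters AGGTCA or their reverse complement TGACCT, the core to which many nuclear receptors bind. Il17a is at chr1:20730655-20730904, Il17f at chr1:20784271-20784494 and Il23r at chr6:67491856-67492105. The gene spans above are from GENCODE, and the RefSeq start used for Il17f lies inside its span. The Il17f run was ended 26 bases early, where an exon of another transcript of the gene begins.
Il17a: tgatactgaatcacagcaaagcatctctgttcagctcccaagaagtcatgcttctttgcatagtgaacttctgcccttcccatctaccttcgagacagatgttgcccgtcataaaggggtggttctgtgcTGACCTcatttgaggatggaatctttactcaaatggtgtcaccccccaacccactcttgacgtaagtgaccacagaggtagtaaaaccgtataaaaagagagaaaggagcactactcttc
Il17f: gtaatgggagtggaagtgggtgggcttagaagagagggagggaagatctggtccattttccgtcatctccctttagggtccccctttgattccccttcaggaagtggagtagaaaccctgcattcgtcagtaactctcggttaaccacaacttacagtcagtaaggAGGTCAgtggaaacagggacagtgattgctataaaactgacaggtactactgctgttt
Il23r: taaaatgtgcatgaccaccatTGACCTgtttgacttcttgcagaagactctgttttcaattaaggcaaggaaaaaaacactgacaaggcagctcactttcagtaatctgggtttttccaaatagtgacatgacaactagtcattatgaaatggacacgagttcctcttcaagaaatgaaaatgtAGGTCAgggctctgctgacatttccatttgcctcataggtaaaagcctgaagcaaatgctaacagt
In the 250 bases before each start, Il17a had 1 match at −120 (reverse), Il17f had 1 at −58 (forward) and Il23r had 2, at −229 (reverse) and −66 (forward). Il17re and Rora had 0. Of 32851 promoters of the same length, 4607, or 14.02%, held at least 1 match on either strand. A match is a description of the letters and not a measured site.

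Il17a, the gene of the lead cytokine, was found mainly in gamma-delta T cells, which held 6250 of its 7047 UMIs (88.7%). Its level there was 1017 CPM (95% CI 992 to 1042). Of the gamma-delta T cells, 388, or 22.8% (median depth 3431 UMIs), had at least 1 UMI, against 1 of 6817 B cells, or 0.0147% (median depth 2381 UMIs). With every cell thinned to 1000 UMIs the shares were 16.5% and 0.0131%. The next types by the mean over libraries were mast cells at 32.9 ± 75.5 CPM and CD4 T cells at 16.9 ± 21.6 CPM (SD, n = 8 libraries), against 931 ± 1444 CPM in gamma-delta T cells. Summed over libraries, CD4 T cells were at 18.4 CPM, at 2.34 CPM with cells called by order of magnitude alone and at 11.6 CPM in a marker gate. Gamma-delta T cells exceeded mast cells in 8 of 8 libraries (exact sign-flip permutation test, two-sided, p = 0.0078, the smallest possible with 8 libraries, adjusted p = 0.133 over 17 neighbouring pairs), and mast cells did not differ from CD4 T cells beyond their spread (higher in 2 of 8 libraries, adjusted p = 1.0). In some other types few droplets held the UMIs. A single mast cell of WT control held 24 of the 31 UMIs of all mast cells. Summed over libraries, mast cells without it were at 7.24 CPM, below CD4 T cells without their highest cell, at 12.3 CPM. One neutrophil held 232 of the 243 UMIs of all neutrophils, and the 3 plasma cells with at least 10 UMIs each carried several hashtags, as droplets with more than 1 cell do.

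A few gamma-delta T cells held most of the Il17a. The 126 cells with at least 10 UMIs held 85.3% of the UMIs, the 17 highest cells (1 in 100) held 41.4%, and the highest held 233, while 77 cells had 1 UMI each. The level was 1181, 510, 292 and 435 CPM in the WT libraries and 4407, 225, 54.3 and 343 CPM in the APPNL-G-F libraries. Both control libraries were above the 6 treated libraries. The APPNL-G-F control library rested on hashtag group 7, which held 3309 Il17a UMIs, or 52.9% of those of all gamma-delta T cells, at 9899 CPM. Without it the library was at 545 CPM, within the range of the WT libraries.

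Hashtag groups with at least 20 gamma-delta T cells showed the spread within libraries. WT control had 70.3, 1312 and 1495 CPM of Il17a, WT acute colitis 499 and 636 CPM, WT chronic colitis 20.6, 390 and 273 CPM, and WT food allergy 616, 395 and 15.2 CPM. APPNL-G-F control had 0, 484 and 9899 CPM, acute colitis 270, 151 and 402 CPM, chronic colitis 8.42, 0, 46.5 and 119 CPM, and food allergy 541, 487, 0 and 0 CPM. The groups of each treatment overlapped those of the control of the same genotype. The lowest group was of the low immediate-early set in 6 of the 8 libraries. Counts of 0 allowed up to 33.5 CPM in the group of APPNL-G-F control, 19.4 CPM in that of chronic colitis, and 31.9 and 23.8 CPM in those of food allergy (3 counts per group).

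**Figure D1:**
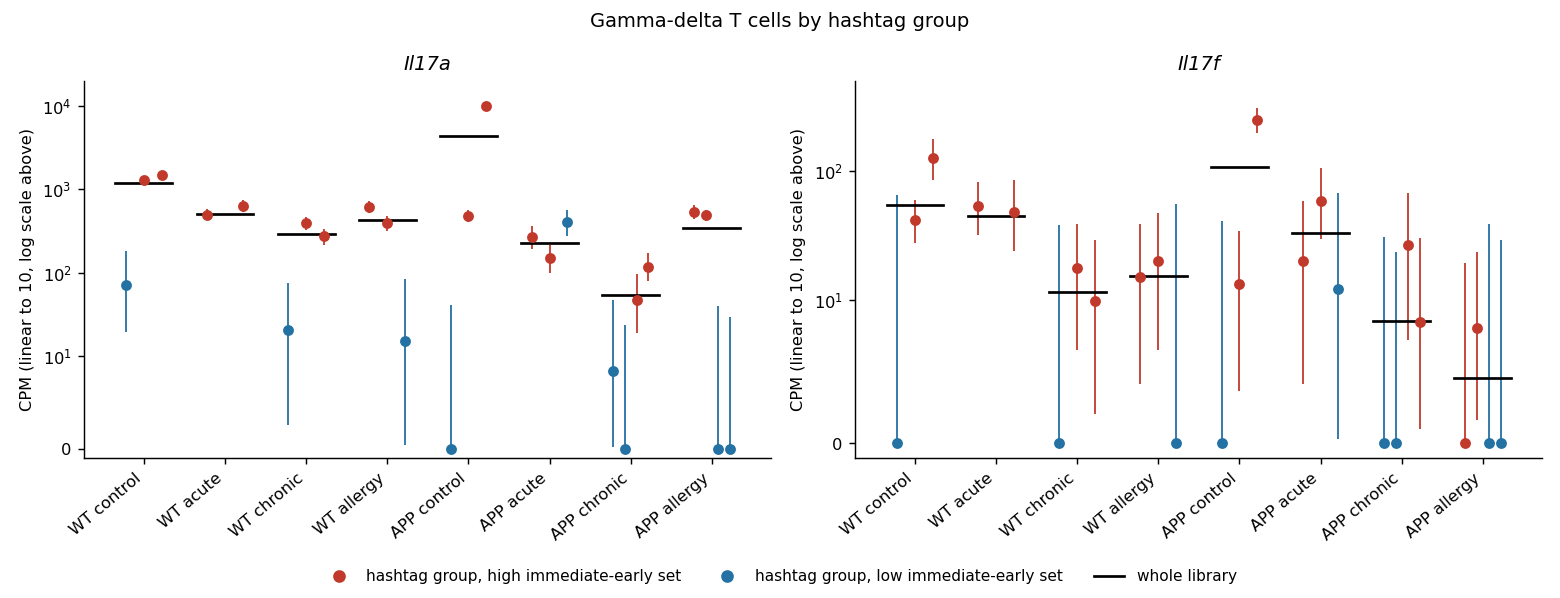
Il17a (left) and Il17f (right) in gamma-delta T cells, as CPM per hashtag group of at least 20 cells (points, with exact Poisson 95% intervals) in the 8 libraries on the x axis. The y axis is linear up to 10 CPM and logarithmic above, black lines are whole libraries, and the highest Il17a point is hashtag group 7 of APPNL-G-F control at 9899 CPM.

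Il17a was lower in chronic colitis than in control APPNL-G-F mice, by a log2 fold change of −6.20 (SE 1.20, edgeR quasi-likelihood test on UMIs summed per hashtag group, adjusted p = 0.0189 over 5114 genes). In this comparison 0.137% of all genes tested were called. It was the single call among 91 tests of the 7 genes in gamma-delta T cells, that is 13 comparisons of treatments, of genotypes and of treatment effects between the genotypes. Of the 91, 15 had an unadjusted p under 0.05. In gamma-delta T cells the share of all genes called against WT control was 2.05% in acute and 2.23% in chronic colitis and 1.49% in food allergy, and against APPNL-G-F control 0.0391%, 0.137% and 0%. Between the genotypes it was 2.09% under control conditions, 0.137% in acute and 0% in chronic colitis and 0.215% in food allergy, and for the treatment effects compared between genotypes 1.08%, 1.15% and 0.645%. The call was lost without hashtag group 7 of APPNL-G-F control (log2 fold change −2.56, adjusted p = 1.0), with DESeq2 (−6.44, adjusted p = 0.189) and without any 1 of the 4 chronic colitis groups (adjusted p of 0.0664 to 0.0979). An exact two-sided permutation test of the mean CPM of 4 groups against 3 gave p = 0.143 (smallest possible 0.0286). For this condition a legend of the study gives fewer mice than there were hashtag groups, so groups may share an animal and p-values over them, those of edgeR included, are then too small. Of the gamma-delta T cells, 71 of 224 had Il17a in APPNL-G-F control and 10 of 199 in chronic colitis.

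The other treatment differences of Il17a had negative values and did not pass the test. They were −0.86 (adjusted p = 0.834), −2.01 (0.445) and −1.42 (0.66) for acute DSS, chronic DSS and ovalbumin in WT mice, and −3.89 (0.543) and −3.67 (0.176) for acute DSS and ovalbumin in APPNL-G-F mice, as edgeR log2 fold changes against control. Without hashtag group 7 of APPNL-G-F control, the last 2 were −0.26 and −0.02 (adjusted p = 1.0 each). The 3 comparisons of a genotype share 1 control library. APPNL-G-F control differed from WT control by 1.88 (adjusted p = 0.684), and by −1.78 without its hashtag group 7 (adjusted p = 0.492), so the direction turned on that group. The effect of chronic colitis differed between the genotypes by −4.18 (adjusted p = 0.481), and by −0.54 without that group (adjusted p = 0.997). None of 10 exact permutation tests between conditions reached 0.05, and the smallest p was 0.114, for chronic colitis between the genotypes.

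Il17f encodes the second cytokine, which also pairs with IL-17A. Of its 276 UMIs, 228 (82.6%) were in gamma-delta T cells, at 37.1 CPM, and 96 of these cells (5.64%, thinned 2.36%) had a UMI against 0 of 6817 B cells (a count of 0 allows at most 0.044%). CD4 T cells followed at 3.26 ± 4.47 CPM against 35.3 ± 34.8 CPM (SD, n = 8 libraries) and were lower in 7 of 8 libraries (exact sign-flip permutation test, p = 0.0156, adjusted p = 0.266). The levels were 54.7, 45.3, 11.5 and 15.4 CPM in the WT libraries and 109, 33.4, 8.57 and 4.58 CPM in the APPNL-G-F libraries. As for Il17a, the 2 control libraries were the highest, and hashtag group 7 of APPNL-G-F control held 83 of the UMIs, at 248 CPM. Without it that library was at 10.5 CPM, below 5 of the other libraries.

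Il17f was not called against control. Its edgeR log2 fold changes in APPNL-G-F mice were −1.68 in acute colitis (adjusted p = 0.839), −3.58 in chronic colitis (0.15) and −4.72 in food allergy (0.121). Without hashtag group 7 of APPNL-G-F control the last 2 were −0.17 and −1.31 (adjusted p = 1.0 each). The food allergy difference was called with the immediate-early set as a term (edgeR, −4.57, adjusted p = 0.0394), and at resolution 1.0 both were (adjusted p = 0.0358 and 0.0482). In WT mice they were −0.33 (0.946), −2.38 (0.273) and −2.06 (0.447). Il17a and Il17f met in the same cells: 61 of the 388 gamma-delta T cells with Il17a (15.7%) had Il17f, against 35 of the 1315 without (2.66%), and the thinned shares were 7.26% and 0.91%. The cells with Il17a were somewhat deeper, at a median of 3804.5 against 3349 UMIs.

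Among the receptor genes, Il23r encodes the subunit specific to the IL-23 receptor. Gamma-delta T cells held 89.3% of its UMIs, at 206 ± 27.2 CPM (SD, n = 8 libraries), with a lowest library of 162, a median of 204 and a highest of 249.3 CPM. Il17re (ENSMUSG00000043088, chromosome 6, 113458484 to 113470758) encodes a subunit of the receptor for IL-17C. It had 70.3% of its UMIs in gamma-delta T cells, at 135 ± 16.4 CPM, with a lowest library of 109, a median of 142 and a highest of 158 CPM. UMIs of Il23r were seen in 47.7% and of Il17re in 36.2% of gamma-delta T cells (thinned 18.4% and 12.5%), against 0.044% and 0.0587% of B cells (thinned 0.0164% and 0.016%). For both genes CD4 T cells were next, at 3.55 ± 2.76 CPM of Il23r and 9.80 ± 8.86 CPM of Il17re, and were lower in 8 of 8 libraries (exact sign-flip permutation test, p = 0.0078, adjusted p = 0.133 each). Neither gene was called in any comparison of conditions. The single test of these 2 genes with an unadjusted p under 0.05 was Il17re in WT acute colitis, 0.82 (SE 0.31, edgeR adjusted p = 0.225).

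Il17ra (ENSMUSG00000002897, chromosome 6, 120463247 to 120487559) encodes the shared subunit through which IL-17A and IL-17F signal, and it followed another pattern. It was highest in monocytes, at 155 ± 24.9 CPM (SD, n = 8 libraries), and neutrophils, at 107 ± 14.95 CPM. Gamma-delta T cells, at 55.7 ± 4.46 CPM, stood beside NK cells (58.0 ± 7.02 CPM), CD4 T cells (54.8 ± 10.1 CPM) and B cells (50.9 ± 7.37 CPM), and none of these neighbours differed beyond the spread (exact sign-flip permutation tests, adjusted p of 0.38 to 0.848). Monocytes exceeded neutrophils in 8 of 8 libraries (adjusted p = 0.0664, same test). Macrophages were at 42.5 ± 8.14 CPM and plasma cells lowest of the ranked types at 12.04 ± 2.3 CPM. After thinning, 14.9% of monocytes and 10.8% of neutrophils had a UMI, against 5.31% of gamma-delta T cells, 5.32% of B cells and 1.51% of plasma cells.

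In neutrophils, the level of Il17ra was 98.4, 123, 93.8 and 85.2 CPM in the WT libraries and 112, 100.1, 128 and 117 CPM in the APPNL-G-F libraries. In monocytes, it was 136, 162, 189 and 139 CPM in WT and 166, 120.0, 186 and 142 CPM in APPNL-G-F mice. In neutrophils, no treatment differed from control with the same sign in both genotypes. Of 39 edgeR tests of Il17ra in neutrophils, monocytes and macrophages, 0 were called (2 at an unadjusted p under 0.05, and with DESeq2 0 called and 0 at that p). In neutrophils the share of all genes called against WT control was 2.4% in acute and 0.801% in chronic colitis and 0.409% in food allergy, and against APPNL-G-F control 0%, 0.017% and 0.017%. Between the genotypes it was 0.818% under control conditions, 3.05% in acute and 0.0341% in chronic colitis and 0.0852% in food allergy, and for the treatment effects compared between genotypes 0.903%, 0.46% and 0.187%. In monocytes the share of all genes called against WT control was 8.33% in acute and 11% in chronic colitis and 1.97% in food allergy, and against APPNL-G-F control 0.144%, 0.0181% and 0%. Between the genotypes it was 3.02% under control conditions, 0.0542% in acute and 0.0181% in chronic colitis and 0.0361% in food allergy, and for the treatment effects compared between genotypes 0.975%, 1.52% and 0.65%. In macrophages the share of all genes called against WT control was 4.01% in acute and 1.4% in chronic colitis and 1.17% in food allergy, and against APPNL-G-F control 1.34%, 0.0768% and 0%. Between the genotypes it was 1.08% under control conditions, 0.0768% in acute and 0.096% in chronic colitis and 0.096% in food allergy, and for the treatment effects compared between genotypes 0.672%, 0.48% and 0.25%. The macrophage range was 32.9 to 59.7 CPM over the libraries.

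**Figure D2:**
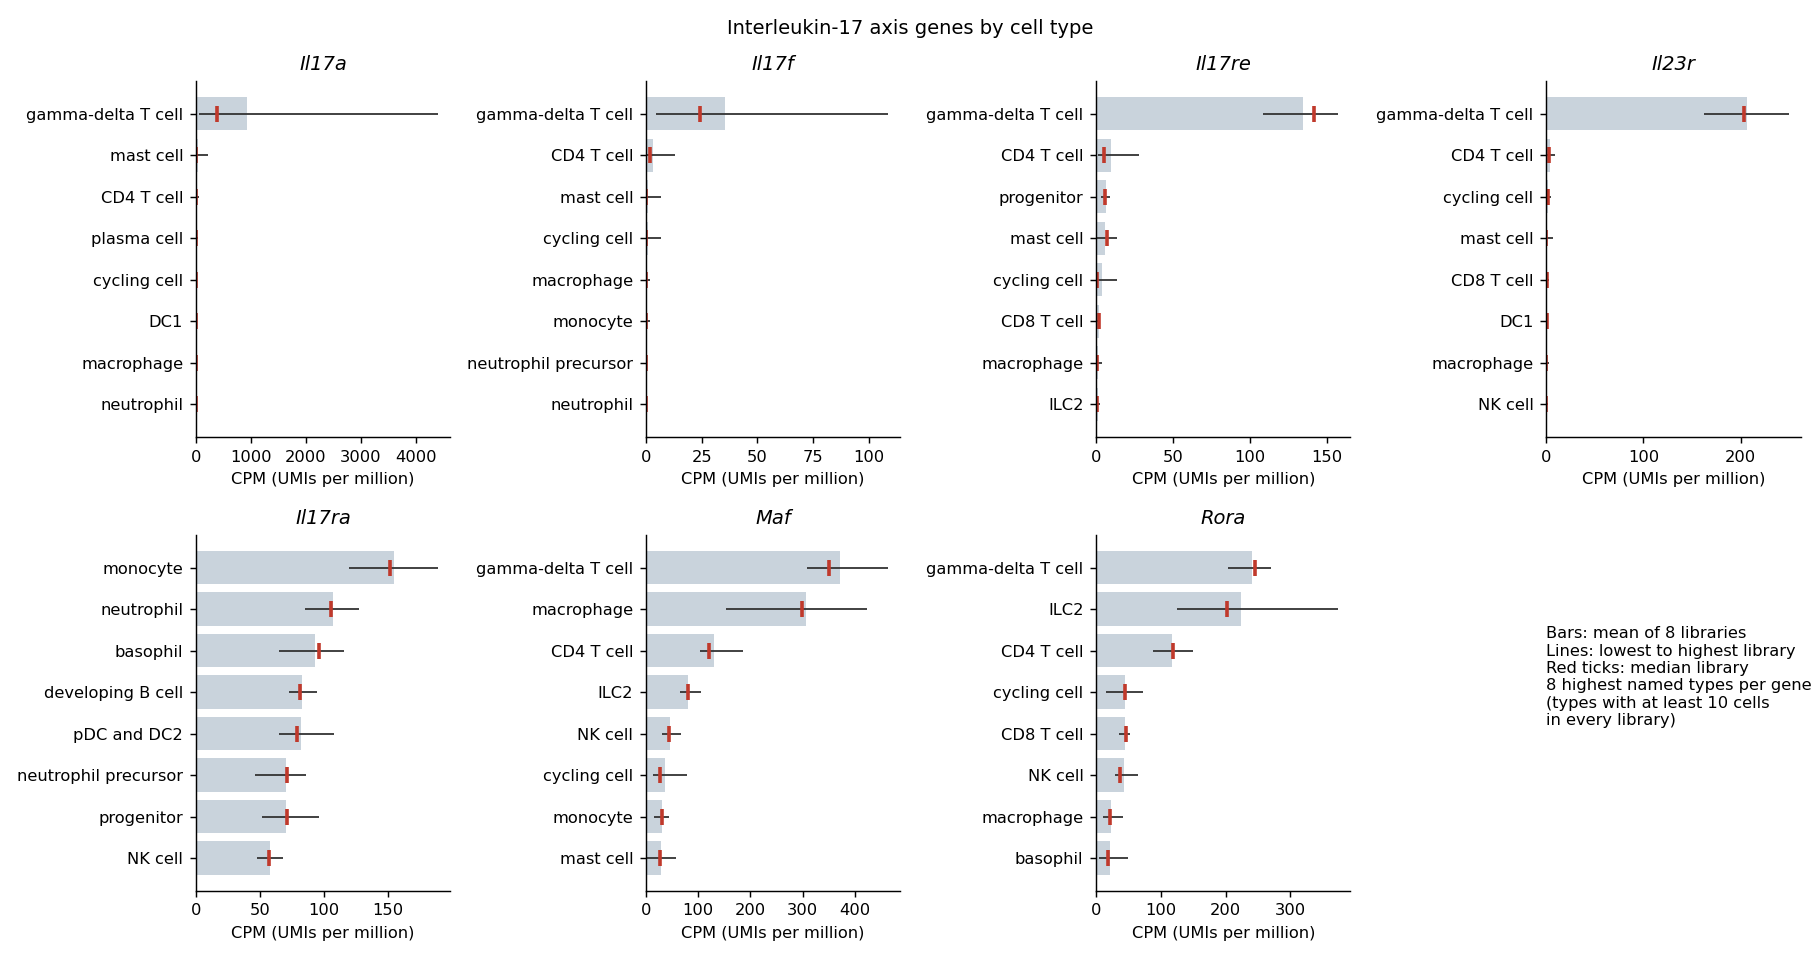
Mean CPM over the 8 libraries (bars) of each gene in its 8 highest named cell types, with the lowest to highest library (lines) and the median library (red ticks). Only types with at least 10 cells in every library were ranked. Among these, gamma-delta T cells led for 6 of the 7 genes, and Il17ra was led by monocytes and neutrophils.

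Maf (ENSMUSG00000055435, chromosome 8, 115682942 to 115707794, minus strand) encodes c-MAF, a transcription factor of type 17 lymphocytes that is also made in tissue macrophages. Both cell types were high: gamma-delta T cells had 372 ± 57.0 CPM and macrophages 306 ± 87.9 CPM (SD, n = 8 libraries), with no difference beyond the spread (exact sign-flip permutation test, adjusted p = 0.288, gamma-delta T cells higher in 7 of 8 libraries). CD4 T cells had 131 ± 33.2 CPM and ILC2, the innate lymphoid cells of type 2 responses, 81.0 ± 11.7 CPM, and each step from macrophages to CD4 T cells, ILC2 and NK cells exceeded the spread (adjusted p = 0.0332 each, same test). Maf UMIs were seen in 65.8% of gamma-delta T cells and 59.9% of macrophages (thinned 29.9% and 30.3%), against 1.78% of B cells (thinned 0.759%).

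Rora (ENSMUSG00000032238, chromosome 9, 68653786 to 69388246, plus strand) encodes RORalpha, a nuclear receptor needed for the development of ILC2 and active in type 17 cells. Gamma-delta T cells (241 ± 19.3 CPM) and ILC2 (223 ± 94.4 CPM) did not differ beyond the spread (exact sign-flip permutation test, adjusted p = 1.0, higher in gamma-delta T cells in 5 of 8 libraries), and ILC2 exceeded CD4 T cells (117 ± 18.6 CPM, adjusted p = 0.0443). In gamma-delta T cells the libraries ranged only from 204 to 269 CPM. The share with a UMI was 53.1% in gamma-delta T cells and 40.2% in ILC2 (thinned 21.4% and 19.8%), against 0.337% of B cells (thinned 0.105%).

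In ILC2, both control libraries were above all 6 treated libraries for Rora. The levels were 350, 156, 206 and 133 CPM in the WT libraries and 374, 242, 197 and 125 CPM in the APPNL-G-F libraries. The hashtag groups were uneven within a library, with 96.8 to 638 CPM over the 4 groups of WT control and 184 to 564 CPM over those of APPNL-G-F control. The differences did not pass the test, with edgeR log2 fold changes of −1.12 (SE 0.47, adjusted p = 0.321) in WT and −1.41 (SE 0.45, adjusted p = 0.507) in APPNL-G-F food allergy. In ILC2, 0 of 39 tests of Il17ra, Maf and Rora were called (4 at an unadjusted p under 0.05, and with DESeq2 0 and 2). With the immediate-early set as a term, Maf in WT acute colitis was called. In ILC2 the share of all genes called against WT control was 1.62% in acute and 2.06% in chronic colitis and 1.59% in food allergy, and against APPNL-G-F control 0.0802%, 0.0535% and 0.0267%. Between the genotypes it was 1.54% under control conditions, 0.241% in acute and 0.0935% in chronic colitis and 0.267% in food allergy, and for the treatment effects compared between genotypes 0.775%, 0.909% and 0.374%.

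In CD4 T cells, Maf was 103, 186, 122 and 181 CPM in the WT libraries, and 109, 119, 105 and 120 CPM in the APPNL-G-F libraries. The WT acute colitis hashtag groups with at least 20 cells, at 165 and 216 CPM, lay above the WT control groups, which reached from 66.0 to 159 CPM. Both WT acute colitis groups were of the high immediate-early set, while WT control had groups of both sets. Over all libraries, Maf in CD4 T cells averaged 154 CPM in high groups and 94.5 CPM in low groups. The edgeR log2 fold change of WT acute colitis against control, 1.02 (SE 0.34), had an adjusted p of 0.134. Of 52 tests of 4 of the genes in CD4 T cells, 0 were called (6 at an unadjusted p under 0.05, and with DESeq2 0 and 3). In CD4 T cells the share of all genes called against WT control was 2.82% in acute and 2.57% in chronic colitis and 1.92% in food allergy, and against APPNL-G-F control 0.136%, 0.156% and 0.0389%. Between the genotypes it was 3.01% under control conditions, 0.194% in acute and 0.0194% in chronic colitis and 0.311% in food allergy, and for the treatment effects compared between genotypes 1.44%, 1.96% and 0.991%.

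Macrophage Maf was not among the comparisons planned and was looked at after its values were seen. Its levels were 154, 424, 294 and 261 CPM in the WT libraries and 273, 320, 422 and 304 CPM in the APPNL-G-F libraries, so WT control was the lowest of the 8. Against it, Maf was higher by an edgeR log2 fold change of 1.28 in WT acute colitis (SE 0.24, adjusted p = 0.00227) and of 1.09 in WT chronic colitis (SE 0.27, adjusted p = 0.0416), with 4.01% and 1.4% of all genes called in these comparisons. The call in chronic colitis was lost in 3 of 7 other settings, and in a marker gate in place of clusters the log2 fold change was 0.36 (edgeR adjusted p = 0.717). Each condition had only 2 hashtag groups of macrophages, all of the high immediate-early set. Hashtag groups were not left out in turn here. In APPNL-G-F mice the log2 fold changes were 0.47 (adjusted p = 0.447) and 0.58 (0.534), and the differences between the genotypes were not called (adjusted p = 0.57 and 0.836).

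In gamma-delta T cells, Maf was 331, 436, 464 and 330 CPM in the WT libraries and 408, 334, 308 and 366 CPM in the APPNL-G-F libraries. It was higher in both WT colitis libraries than in WT control and lower in both APPNL-G-F colitis libraries than in APPNL-G-F control. The edgeR tests of this difference between the genotypes gave −1.004 (SE 0.38, adjusted p = 0.442) for acute and −1.12 (SE 0.35, adjusted p = 0.193) for chronic colitis, where 1.08% and 1.15% of all genes were called. With the immediate-early set as a term in the fit, the difference for chronic colitis was called.

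**Figure D3:**
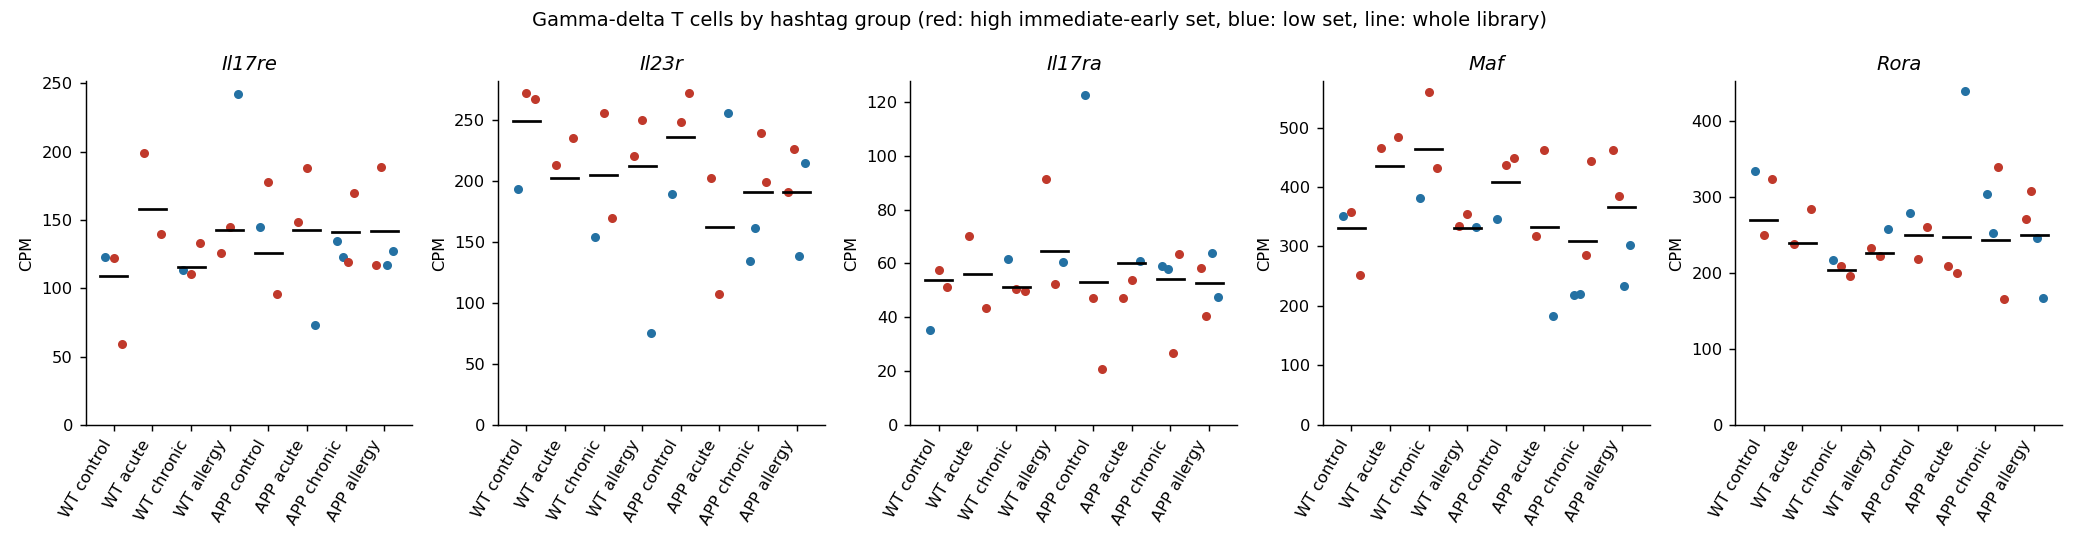
The 3 receptor and 2 transcription factor genes in gamma-delta T cells, as CPM per hashtag group of at least 20 cells (points, red for the high and blue for the low immediate-early set) and per library (lines). Il17ra and Rora libraries lie within narrow ranges, while the highest and lowest Maf libraries are WT chronic colitis (464 CPM) and APPNL-G-F chronic colitis (308 CPM).

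Il17f and Maf were higher in the high than in the low immediate-early set, and Il17a narrowly missed the threshold after adjustment. Over the 8 libraries, Il17a in the high set had a lowest value of 90.5, a median of 507 and a highest of 5463 CPM, and in the low set 0, 9.4 and 402 CPM. The high set was above in 7 of 8 libraries (exact sign-flip permutation test, two-sided, p = 0.0234, adjusted p = 0.0547 over 7 genes). The exception was APPNL-G-F acute colitis, with 204 CPM in the high and 402 CPM in the low set. The low-set value rested on 33 UMIs in 2 of 29 cells, against 15 of 100 cells with Il17a in the high set. Of the gamma-delta T cells in the high set, 350 of 1294 (27.0%, median depth 3433 UMIs) had Il17a, against 6 of 303 (1.98%, median depth 3204 UMIs) in the low set, and the thinned shares were 19.8% and 1.17%.

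Il17f was at a median of 29.8 CPM over libraries in the high set and at 0 in the low set, with the high set above in 8 of 8 libraries (means 43.5 and 3.88 CPM, exact sign-flip permutation test, adjusted p = 0.0273). The sets held 219 and 2 UMIs. A low-set count of 0 allowed up to 30.6 CPM in WT chronic colitis, 45.4 in WT and 13.7 in APPNL-G-F food allergy. These limits exceeded the high-set levels of 14.1, 17.6 and 5.36 CPM, so the order there is unresolved. The limit was below the high-set level in both control libraries and APPNL-G-F chronic colitis. Maf also was above in 8 of 8 (means 410 and 277 CPM, adjusted p = 0.0273, same test), with a lowest library of 330 CPM in the high and 183 CPM in the low set. Il23r was higher in 7 of 8 libraries (means 223 and 165 CPM), with an adjusted p of 0.12, and Il17re, Il17ra and Rora did not differ beyond the spread. Without hashtag group 7 of APPNL-G-F control, Il17a (505 against 59.9 CPM) had the same p, and Il17f and Maf were still called. The sets were found from the data, and what else separates them was not tested.

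The variable segment of the gamma chain divided the cells further. UMIs of Tcrg-V6 alone were found in 17 to 107 gamma-delta T cells per library (median 44), and those of another single segment in 17 to 26 (median 22). Most of the 1703 gamma-delta T cells were thus left out of this comparison. UMIs of several segments were found in 924 cells, with Il17a at 1050 CPM, and of none in 218 cells, with Il17a at 122 CPM. Il17a was at a lowest of 64.2, a median of 477 and a highest of 8225 CPM over libraries in the Tcrg-V6 cells, and at 16.2, 121 and 306 CPM in the others. The Tcrg-V6 cells were above in 8 of 8 libraries (exact sign-flip permutation test, p = 0.0078, adjusted p = 0.0182). The same held for Il23r (means 249.5 and 142 CPM) and Maf (means 383 and 245 CPM), each in 8 of 8 libraries with an adjusted p of 0.0182. Without hashtag group 7 of APPNL-G-F control, Il17a (574 against 118 CPM) was still higher in 8 of 8 libraries, but its adjusted p was 0.0547. Il23r (239.0 against 145 CPM, adjusted p = 0.0547) and Maf (369 against 248 CPM, adjusted p = 0.0911, exact sign-flip permutation tests) were each higher in 7 of 8 libraries.

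Among the single segments, cells with Trgv2 had 222 CPM of Il17a (62 UMIs, 86 cells), those with Tcrg-V4 65.4 CPM (8 UMIs, 34 cells) and those with Tcrg-V5 16.0 CPM (2 UMIs, 36 cells), against 1810 CPM in the Tcrg-V6 cells. In 9 cells with Tcrg-V1, 0 UMIs were seen, which allows up to 100 CPM. Of the cells with Il17a, 92.0% had a Tcrg-V6 UMI, against 62.1% of those without (thinned 70.8% and 50.0%). Il17f, Il17re, Il17ra and Rora did not differ between the segments beyond the spread. Trgv2 may share reads with the other gamma segments, which are similar in sequence, so these counts by segment are uncertain.

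**Figure D4:**
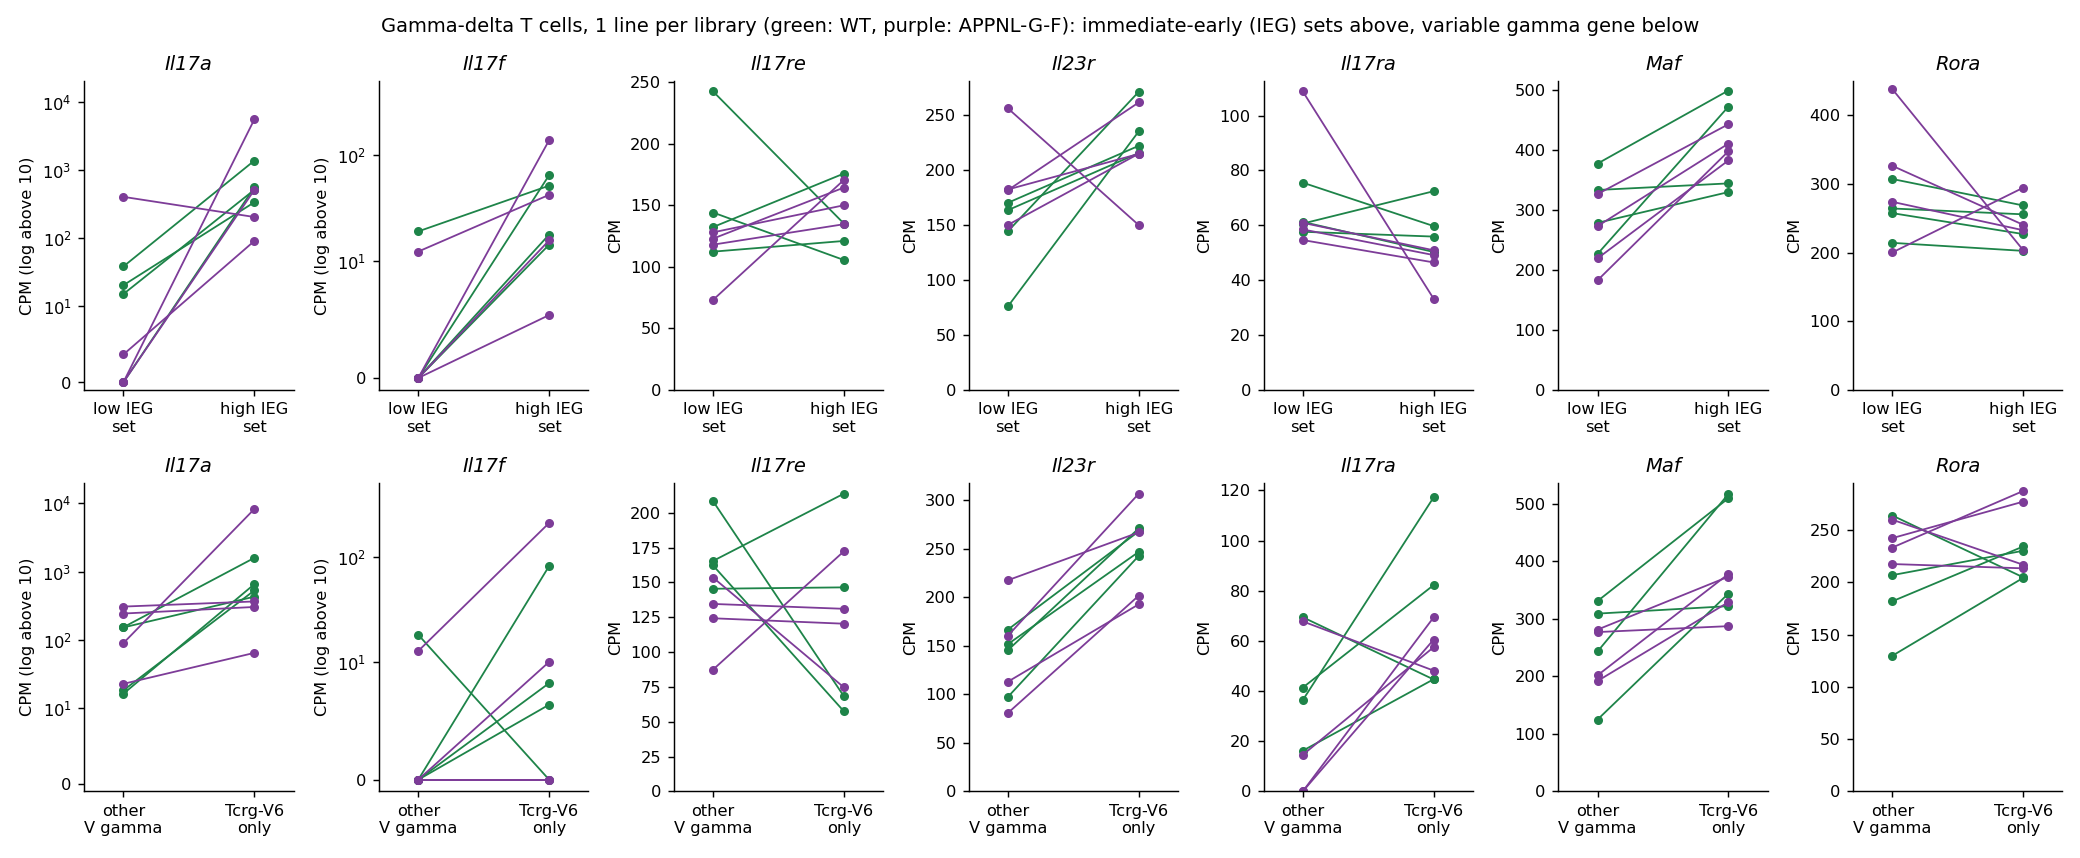
CPM of the 7 genes in gamma-delta T cells in pairs within each of the 8 libraries (lines, green for WT, purple for APPNL-G-F). The top panels compare the low with the high immediate-early set and the bottom panels cells with another single variable gamma segment with Tcrg-V6 cells; the Il17a and Il17f axes are logarithmic above 10 CPM, and Maf rises from left to right in all 16 pairs.

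The 107 cells named ILC3 at the finer clustering differed from the gamma-delta T cells in the balance of these genes. They had 0 UMIs of Il17a, which allows up to 6.63 CPM (3 counts), but 12 UMIs of Il17f (26.5 CPM). Il17re was at 99.5, Il23r at 106, Maf at 188 and Rora at 314 CPM. Il22, the cytokine typical of ILC3, was at 166 CPM (75 UMIs in 11 cells), against 8.24 CPM in the cells still named gamma-delta T cells.

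In CD4 T cells, 19 of 3271 had Il17a, 0 to 7 per library, with 80 of the 163 UMIs in 7 cells of APPNL-G-F food allergy and 54 in 1 cell of WT acute colitis. In these 19 cells Maf was at 512 CPM (30 UMIs) against 124 in the other CD4 T cells, and Il17re at 188 (11 UMIs) against 6.93. Ccr6, a chemokine receptor of type 17 cells, was at 239 (14 UMIs) against 15.8 CPM. Il17f was at 290 CPM (17 UMIs in 4 cells) against 1.70, and Rora at 205 (12 UMIs) against 113. Il23r had only 2 UMIs in them (34.1 against 2.73 CPM). Trdc, Tcrg-V6 and Cd163l1 were at 0 UMIs, which allows up to 51.2 CPM. Il17a did not pass the filter on low counts in CD4 T cells, and without this filter 4 of its comparisons were called, which rest on these few cells.

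Other genes of the pathway were taken from 10 lists of 71 genes in all. Gamma-delta T cells were the leading type for 7 of 10 type 17 surface genes, among them Cd163l1 (1217 CPM) and Ccr6 (102 CPM). Cd163l1 was also among the markers that named this type, so its lead is no separate finding. The Ccr6 value included the 107 cells named ILC3 at the finer clustering. These were at 530 CPM (240 UMIs), above the 69.2 CPM of the cells still named gamma-delta T cells. Gamma-delta T cells also led for 4 of 11 genes of a list of type 17 regulators, among them the transcription factor genes Sox13 (189 CPM) and Zbtb16 (150.3 CPM) and the kinase gene Blk (458 CPM), and for 3 of 7 receptors of inducing cytokines (Il12rb1 at 110.0, Il1r1 at 145 and Il18r1 at 317 CPM). None of the 4 other IL-17 ligands (Il17b, Il17c, Il17d and Il25) had a UMI in gamma-delta T cells, which allows up to 0.488 CPM each. Over the 22 named cell types, the patterns most like Il17a in log2(CPM + 1) were those of Ablim3 (r = 0.902), Serinc2 (0.892) and Il17f (0.892). For Il23r they were Lingo4 (0.937), Kcnk1 (0.914) and Ablim3 (0.893), for Il17re they included Kcnk1 (0.875) and Actn2 (0.873), and for Il17ra Gmfg (0.856), Atg101 (0.852) and Naa60 (0.835). These correlations rest on 22 points that share the same libraries and their depth, and on gamma-delta T cells as the single high point for the first 3 genes.

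Of the pathway genes, 41 were tested in gamma-delta T cells. In 10 comparisons of treatment or genotype, 10 of 410 tests were called higher and 4 lower, from 4 genes, or 3.42% against 0.839% of all genes. Zbtb16, which encodes the factor PLZF of innate-like T cells, was lower in all 3 treated WT libraries, by edgeR log2 fold changes of −1.79 in acute colitis (adjusted p = 0.024), −1.72 in chronic colitis (0.0129) and −1.998 in food allergy (0.00861). These 3 comparisons share 1 control library, and 2.05%, 2.23% and 1.49% of all genes were called in them. In APPNL-G-F mice the Zbtb16 values were −0.88, −0.79 and −0.70 (adjusted p of 0.749 to 0.839), and the differences between the genotypes were not called (adjusted p of 0.863 to 0.922). The calls for S100a8 and S100a9 were all higher, in 5 comparisons. They made up all 10 higher calls. Both genes, which encode the subunits of calprotectin, were highest in neutrophils (125900 and 144900 CPM) and at 105 and 103 CPM in gamma-delta T cells. There they ran from 3.48 to 382 CPM and from 4.34 to 400 CPM over the libraries. Whether the lymphocytes made this RNA themselves was not tested. The remaining call was Cxcl2, a chemokine gene highest in neutrophils, lower in WT chronic colitis. In CD4 T cells 12 of 360 tests (S100a8, S100a9 and Ccr2) were called, or 3.33% against 1.12% of all genes, and in ILC2 13 of 420 (S100a8, S100a9, Serpinb1a and Lcn2), or 3.1% against 0.756%.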

How the data were processed

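Droplets of CD45.2+ brain cells were made with a 5′ kit that counts UMIs. The authors deposited raw UMI counts per gene and barcode, with hashtag counts in the same matrix. They used Cell Ranger 6.1.2 per the submitters' processing notes, with mm10 as the build. The deposited counts covered every barcode, so cells were called anew: by order of magnitude with 3000 expected cells, plus barcodes of at least 500 UMIs that differed from empty droplets at a false discovery rate of 0.01. Barcodes with under 200 genes or over 5% of UMIs from mitochondrial genes were left out. Total UMIs per library in cells and the median per cell are given above, and they limit precision as the intervals show. PCR duplicates are removed by UMIs, and intervals cover counting error only.

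Cells were clustered with scanpy 1.11.5 (2000 variable genes without the 7 genes and the pathway lists, 30 components, 20 neighbours, Leiden resolution 0.5) and named from marker lists. Doublets were kept: the automatic threshold of Scrublet called 0% to 0.14% of a library, and leaving out the highest scores was an alternative. UMIs were summed per hashtag group with at least 20 cells of a type and tested with the edgeR 4.0.16 quasi-likelihood test (TMM, Benjamini-Hochberg adjustment over all genes tested, threshold 0.05). DESeq2 1.42.0 was an alternative. A hashtag group shares its library, so these p-values measure the spread within libraries, which may be technical. Paired values were tested with exact sign-flip permutation tests over 8 libraries and group means with exact permutation tests, all two-sided. On simulated counts with the samples of APPNL-G-F acute colitis against control, the gamma-delta fit recovered 42% of genes changed 2-fold and 97% of those changed 4-fold (5249 genes). The simulation gave every gene the same spread and changed only genes with at least 20 UMIs per hashtag group on average. Il17f and Il17ra had fewer, and Il17a ran from 0 to 9899 CPM within APPNL-G-F control. The recovered shares therefore do not carry over to these genes. Alternatives were other size factors, no filter on low counts, the immediate-early set as a term, at least 10 cells, resolution 1.0, a marker gate in place of clusters, doublets left out, and each hashtag group left out.

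The genes named were the 7 genes, the pathway lists, the genes used to name or divide cells, and for 4 of the 7 genes the 3 with the most similar pattern over cell types among genes with at least 200 UMIs. The members and lists were chosen with earlier results of these data known. Gene positions are from GENCODE on GRCm38, and promoters from RefSeq, where Maf and Il17ra were not matched. Results for 1 gene of the lists are not reported here.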

Additional observations from a re-analysis of the deposited data

Results flagged for a closer look

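In 38 groups of 4 to 10 values, the highest or lowest value was compared with the rest by Dixon's test, and 4 stood apart. Chance alone sets about 1 in 20 such groups apart. Il17a in gamma-delta T cells of the APPNL-G-F control library was at 4407 CPM, where the other 7 libraries were at 54.3 to 1181 CPM. Maf in ILC2 of the WT acute colitis library was at 105.5 CPM, and the other 7 libraries at 64.8 to 83.7 CPM. This comparison with WT control was called with the immediate-early set as a term. Il17re in gamma-delta T cells of hashtag group 5 of APPNL-G-F food allergy was at 188 CPM against 117 to 127 CPM in the other 3 groups. Rora in ILC2 of hashtag group 5 of APPNL-G-F chronic colitis was at 353 CPM against 181 to 189.0 CPM in the other 3 groups.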

How the results depend on the processing

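The number of calls among the 91 tests in gamma-delta T cells was 1 as reported, 18 with no filter on low counts, 3 with the immediate-early set as a term (Il17a in APPNL-G-F chronic colitis, Il17f in APPNL-G-F food allergy and the genotype difference of Maf in chronic colitis), 0 with DESeq2 (12 at an unadjusted p under 0.05, against 15 with edgeR), 3 at resolution 1.0, and 0 to 4 when 1 hashtag group was left out. It was 0 without group 7 of APPNL-G-F control or group 4, 5 or 6 of APPNL-G-F chronic colitis, and 4 without group 4 or 6 of APPNL-G-F control. In CD4 T cells it was 6 with no filter and 0 as reported, and in ILC2 3 with no filter, 1 with the immediate-early term (Maf in WT acute colitis) and 0 as reported. The cause was not tested.

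For Il17a in APPNL-G-F chronic colitis against control, the log2 fold change was −6.20 as reported (adjusted p = 0.0189, edgeR), −6.44 with DESeq2 (adjusted p = 0.189), −5.70 in a marker gate (edgeR adjusted p = 0.605) and −7.63 to −2.56 with 1 hashtag group left out. APPNL-G-F against WT control was −1.78 without APPNL-G-F control group 7, with a range of −1.78 to 2.44 over the groups left out. On mean CPM over hashtag groups, the same difference was −0.57 on log2(CPM + 10), −70.3 CPM within the low set and −718 CPM without that group, the lowest of a range up to 4232 CPM. Chronic colitis minus control in APPNL-G-F mice was 4.21 CPM within the low set. For acute colitis minus control in these mice (−3187 CPM) it was 402 CPM there and 32.3 CPM without group 7, and for food allergy (−3204 CPM) 15.3 CPM without group 7. The 402 CPM rested on 33 UMIs in 2 cells. Acute colitis minus control in WT mice (−392 CPM) was 0.08 on log2(CPM + 10). Rora in gamma-delta T cells was 202 CPM in the marker gate against 243 as reported. There, 4 genes in place of 2 differed between the immediate-early sets, and the differences of Il17ra (1.33 CPM) and Rora (50.4 CPM) changed sign. Without group 7 of APPNL-G-F control, left out after the data were seen, 0 genes in place of 3 were called by variable gamma segment, with Il17a, Il23r and Maf still higher in Tcrg-V6 cells in 7 or 8 of the 8 libraries. The Rora difference was −1.9 CPM with at least 2 UMIs of the segment.

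Of the 740 alternative values computed over 53 results, those not given here kept their direction and side of the threshold, or are single genes that crossed it without a change of direction. Leaving out groups was not run for Il17ra in myeloid cells, and the immediate-early term could not be fitted in macrophages. With 1 library per condition, no setting separates a treatment from its library. No paired analysis was possible because the labels carry no replicate numbers that would match samples of different conditions, and the paired tests above compare cells within a library.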
